A study of Rattus norvegicus and Mus musculus with 251 samples.

Results

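Dusp1, Dusp4, Dusp5, Dusp6 and Dusp14 encode phosphatases of the dual-specificity family that act on MAP kinases. They were chosen by gene symbol and make up 5 of the 46078 gene identifiers in the mouse count table. These genes and the gene lists below were chosen with earlier results of these data known. Their counts beside the shares of all genes are therefore a description. The study measured RNA in the prefrontal cortex (PFC) and nucleus accumbens (NAc) of mice that drank saline or morphine solution, and in rats that took oxycodone. Of its 251 libraries, the 62 mouse libraries were used, and the rat libraries were not analysed here.

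All mice were labelled as the inbred strain C57BL6J, with females and males in every group. The groups were saline, chronic morphine, 24 h after morphine and 2 weeks after morphine. They held 6, 8, 9 and 7 libraries in PFC and 7, 8, 9 and 8 in NAc. Age, dose and length of drinking are not given in the sources used here. Tissue came from small punches of brain sections. The labels name the cell type as neuron, but astrocyte markers (Aqp4, Gfap, Slc1a3, Aldh1l1 and Gja1) summed to between 1013 and 1385 CPM (counts scaled to a common library size) in PFC of saline mice, so the punches held other cells too. In such bulk tissue, fewer cells of a type and less RNA per cell cannot be told apart.

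MAP kinases such as ERK, JNK and p38 carry signals from receptors and calcium entry to the nucleus, and are switched on by phosphorylation of a threonine and a tyrosine in their activation loop. Dual-specificity phosphatases remove both phosphates and switch the kinase off. Several of these genes are themselves transcribed in response to the kinases, which makes them part of a negative feedback loop. In neurons, ERK signalling also drives immediate early genes through the transcription factors SRF and CREB. DUSP1 is a nuclear enzyme that acts on p38, JNK and ERK, and its gene is a classical immediate early gene. DUSP5 acts on ERK in the nucleus, DUSP6 acts on ERK in the cytoplasm, and DUSP4 is a nuclear enzyme. DUSP14 is a small family member that lacks the amino-terminal kinase-binding domain of the others.

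What the 5 genes share is the catalytic loop, in which a cysteine attacks the phosphate and an arginine holds it. The coding bases around that loop are given from the GENCODE M21 transcripts of GRCm38, 36 bases each, with the codons of the catalytic cysteine and arginine in capitals.
Dusp1: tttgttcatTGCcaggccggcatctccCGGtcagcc
Dusp4: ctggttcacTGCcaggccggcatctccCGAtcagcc
Dusp5: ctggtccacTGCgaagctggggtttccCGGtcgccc
Dusp6: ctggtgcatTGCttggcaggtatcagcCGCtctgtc
Dusp14: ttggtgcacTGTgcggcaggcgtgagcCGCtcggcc
The windows of Dusp1 (chr17:26506586-26506621, minus strand) and Dusp4 (chr8:34818427-34818462, plus strand) were the most alike, with 32 of 36 bases identical. Every other pair shared 21 to 26 bases. The windows of the others are chr19:53540945-53540980 (Dusp5, plus strand), chr10:99266021-99266056 (Dusp6, plus strand) and chr11:84048857-84048892 (Dusp14, minus strand). The cysteine was codon 258 of 367 in Dusp1, 284 of 398 in Dusp4, 263 of 384 in Dusp5 and 293 of 381 in Dusp6. Dusp14 is the shortest, with 198 codons.

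Since immediate early genes are known for promoter motifs of CREB and SRF, the promoters of these genes were searched for them. Mouse promoters were not used here, and the sequences are those of the rat genes, from RefSeq on GRCr8, 300 bases from 250 before the start to 50 after it. The motifs were TGACGTCA, its core TGACG on both strands, and the CArG box of SRF. They occur in 1.83%, 21.2% and 1.64% of 33469 rat promoters. Dusp1 held 1 TGACGTCA, which contains 2 of its 3 TGACG matches, and no CArG box. Dusp5 held 2 CArG boxes and 1 TGACG match. The stretches with the matches are shown with these in capitals.
Dusp1, chr10:17184675-17184742, plus strand: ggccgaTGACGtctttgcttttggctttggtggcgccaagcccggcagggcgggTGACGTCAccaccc
Dusp5, chr1:262543686-262543729, plus strand: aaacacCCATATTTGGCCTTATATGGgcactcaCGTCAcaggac
The Dusp6 promoter held none of these letters, and of the 3 promoters of Dusp14 1 held a TGACG match. A match describes the sequence and not a bound site.

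The genes lie on different chromosomes and all are protein-coding. In GRCm38, Dusp1 (ENSMUSG00000024190) spans chr17:26505590-26562128 on the minus strand and Dusp4 (ENSMUSG00000031530) spans chr8:34807297-34819894 on the plus strand. Dusp5 (ENSMUSG00000034765) spans chr19:53529109-53542431 and Dusp6 (ENSMUSG00000019960) chr10:99263231-99267489, both on the plus strand. Dusp14 (ENSMUSG00000018648) spans chr11:84048041-84069261 on the minus strand. Dusp1 overlaps 4 annotated genes, 2 of them on the other strand, and Dusp5 overlaps 1 on the other strand. These overlaps are of whole gene spans, and exons were not compared. The counting program and its use of strand are not given in the sources used here. Whether reads of these partners entered the counts of Dusp1 and Dusp5 is therefore not known.

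Library totals ran from 5182601 to 41532464 counts in PFC (median 29999922) and from 22387525 to 43963295 in NAc (median 32159518). The lowest was PFC number 10, a female at 2 weeks, and the next lowest PFC library had 24936879. In PFC the cortical neuron gene Slc17a7 lay between 10.48 and 11.85 log2 CPM and the striatal gene Drd1 reached at most 3.22. In NAc, Drd1 ran from 3.18 to 8.18 and Slc17a7 from 1.63 to 9.22, so both marker levels varied widely between NAc punches. Number 27, labelled female, expressed the Y-linked gene Ddx3y in both regions. A further split not in the labels was seen in the pseudogene Gm10263, which was at 2.29 to 4.11 log2 CPM in 18 PFC libraries and at -3.96 in the other 12. These are called the on and off state below. The state was the same in all 30 PFC and NAc libraries of equal number. Saline females and all 2-week mice were off. Saline males, all chronic mice, the 24 h females and 3 of 5 males at 24 h were on. Where it moves with a treatment, the 2 cannot be told apart.

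Levels between genes were compared as CPM per kilobase of exon. In PFC of saline mice, Dusp6 stood at 36.5 ± 4.72, Dusp14 at 32.3 ± 3.75 and Dusp1 at 31.8 ± 5.54 CPM per kilobase (SD, n = 6). Dusp5 followed at 15.6 ± 2.38 and Dusp4 at 8.21 ± 1.67 (SD, n = 6). The first 3 did not separate, since Dusp14 was above Dusp1 in only 2 of 6 libraries and Dusp6 was above Dusp14 in 5 of 6. The steps from Dusp1 to Dusp5 and from Dusp5 to Dusp4 had the same order in 6 of 6 libraries. Under chronic morphine the order of the PFC means was Dusp14, Dusp6, Dusp1, Dusp5 and Dusp4, with Dusp14 above Dusp6 in 7 of 8 libraries.

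In NAc of saline mice all 5 genes were lower on this scale. Dusp14 stood at 9.72 ± 3.70, Dusp6 at 6.91 ± 1.12 and Dusp1 at 6.63 ± 1.48 CPM per kilobase (SD, n = 7). Dusp4 was at 3.47 ± 0.584 and Dusp5, the lowest, at 2.34 ± 0.877 (SD, n = 7). Each gene was above the next in this order in 6 or 7 of 7 libraries. Between saline mice of the regions, the log2 fold change of NAc against PFC ran from -2.71 ± 0.20 for Dusp5 (SE, edgeR adjusted p = 3.86e-16) to -1.23 ± 0.16 for Dusp4 (SE, edgeR adjusted p = 8.58e-09). It was -2.39 for Dusp6, -2.24 for Dusp1 and -1.71 for Dusp14. All 5 passed the test, in a comparison where 35.9% of 19266 genes did, so a regional difference as such was common. Throughout, a gene is said to be called where its edgeR p, adjusted by Benjamini-Hochberg over all genes tested, was under 0.05.

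**Figure D1:**
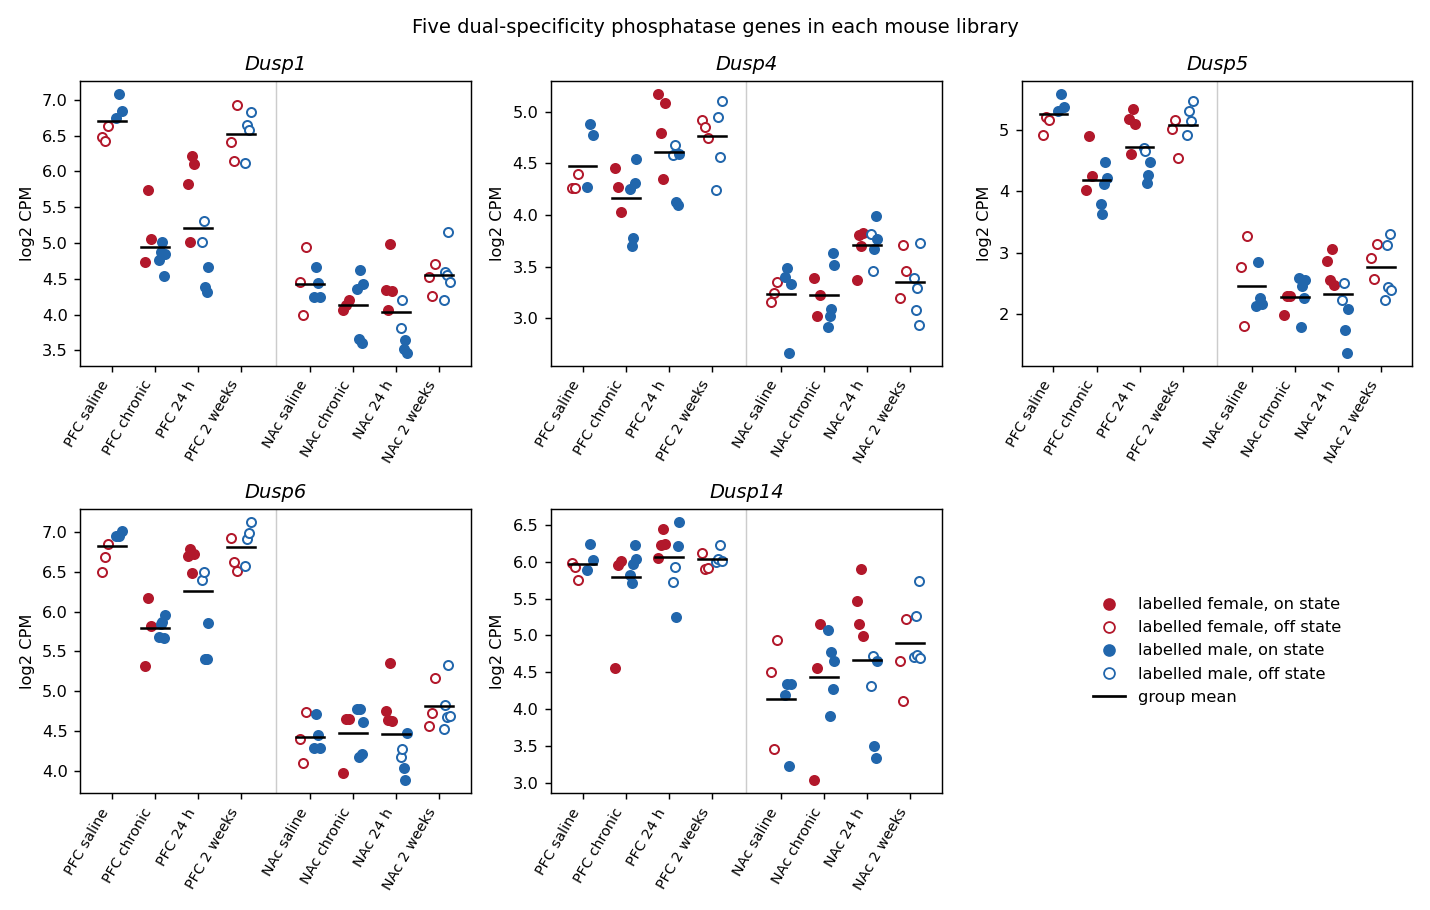
Each panel shows one gene, with log2 CPM on the vertical axis and the 4 treatments of PFC and then NAc on the horizontal axis. Points are libraries, coloured by labelled sex and filled in the on state, and bars are group means. Dusp1, Dusp5 and Dusp6 of PFC have no chronic library as high as the lowest saline library, while the NAc groups overlap. Such separation was not counted over all genes.

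Chronic morphine was compared with saline to ask how gene expression stood while the drug was being taken. In PFC, Dusp1, Dusp5 and Dusp6 were lower under chronic morphine, and Dusp4 and Dusp14 were not called. Levels here are log2 CPM per library. Dusp1, the immediate early phosphatase of the nucleus, had its lowest, median and highest saline libraries at 6.42, 6.69 and 7.08. Under chronic morphine these were 4.54, 4.86 and 5.74. All 8 chronic libraries lay under the lowest saline library. How many of all genes separate in this way was not counted, here or in the contrasts below. The log2 fold change was -1.68 ± 0.19 (SE, edgeR adjusted p = 1.47e-06), which is a fold of 0.312.

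Dusp6, the cytoplasmic ERK phosphatase, ran from 6.50 through a median of 6.90 to 7.01 in saline mice and from 5.32 through 5.83 to 6.17 in chronic mice. Again no chronic library reached the lowest saline library. Its log2 fold change was -1.02 ± 0.15 (SE, edgeR adjusted p = 2.79e-04). Dusp5, its nuclear counterpart for ERK, had saline libraries at 4.92, 5.26 and 5.58 (lowest, median and highest) and chronic libraries at 3.63, 4.17 and 4.90. The groups met at 4.90 and 4.92 without overlap. The log2 fold change of Dusp5 was -1.0 ± 0.16 (SE, edgeR adjusted p = 5.98e-04).

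Dusp4, also nuclear, ran from 4.26 through 4.33 to 4.88 in saline mice and from 3.70 through 4.26 to 4.54 in chronic mice, so the groups overlapped. Its log2 fold change was -0.27 ± 0.17 (SE, edgeR adjusted p = 0.755). Dusp14 ran from 5.75 through 5.95 to 6.24 in saline mice and from 4.56 through 5.97 to 6.23 in chronic mice. Number 25 alone held the value of 4.56. It had the lowest cortical neuron marker sum of the chronic PFC libraries (1768 CPM, median 3330), whose part in its Dusp14 level was not tested. The log2 fold change of Dusp14 was -0.16 ± 0.17 (SE, edgeR adjusted p = 0.907).

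In this contrast 3 of the 5 genes were called, all lower, where 0.417% of 17966 genes were called. Since the 5 were chosen with earlier results known, this is a description. The median log2 fold change over the 5 was -1.0, against 0.01 over all genes tested. Without number 27 the same 3 were called, at -1.64 for Dusp1, -1.03 for Dusp6 and -0.96 for Dusp5. With any 1 of the 30 PFC libraries left out, the count of called members was 3 each time. In this contrast the median log2 fold change was 0.16 for 8 markers of cortical glutamatergic neurons, -0.11 for 6 of interneurons and -0.09 for 5 of astrocytes. For 3 markers of choroid plexus it was 1.75, and their sum reached 3319 CPM in number 31 against a chronic median of 8.84. The part of these cells in the result was not tested.

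The state bears on this contrast, because saline females were off and chronic females were on. With the state as a covariate, Dusp1 stayed called at -1.32 (edgeR adjusted p = 0.00442), but Dusp5 was at -0.81 (edgeR adjusted p = 0.363) and Dusp6 at -0.58 (edgeR adjusted p = 0.431). That covariate is set by the 24 h males alone, since in every other treatment and sex all libraries had 1 state. Males give a comparison within the on state. In them Dusp1 changed by -2.08 ± 0.24 (SE, edgeR adjusted p = 3.59e-06), Dusp5 by -1.35 ± 0.20 (SE, edgeR adjusted p = 4.39e-04) and Dusp6 by -1.17 ± 0.20 (SE, edgeR adjusted p = 0.00219). These were 3 of 5 genes where 0.161% of all genes were called in males. The male libraries did not overlap: Dusp1 ran from 6.75 to 7.08 in 3 saline males and from 4.54 to 5.01 in 5 chronic males.

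In females, Dusp1 fell, at -1.27 ± 0.28 (SE, edgeR adjusted p = 0.0426), while Dusp6 was at -0.87 ± 0.23 (SE, edgeR adjusted p = 0.185) and Dusp5 at -0.66 ± 0.24 (SE, edgeR adjusted p = 0.592). Dusp1 was thus 1 of 5 called, where 0.189% of all genes were. Without number 27 its female value was -1.20 (edgeR adjusted p = 0.201) and the call was lost.

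At 24 h after morphine, the contrast asks what remained a day after the drug was taken away. Dusp1 in PFC was still lower, with libraries at 4.32, 5.02 and 6.22 (lowest, median and highest). All 9 lay under the lowest saline library of 6.42. The log2 fold change was -1.38 ± 0.17 (SE, edgeR adjusted p = 6.33e-05), which is a fold of 0.384. Dusp6 spread from 5.41 through 6.49 to 6.79 and Dusp5 from 4.14 through 4.66 to 5.34, both overlapping the saline libraries. Their log2 fold changes of -0.49 ± 0.14 for Dusp6 (SE, edgeR adjusted p = 0.579) and -0.48 ± 0.15 for Dusp5 (SE, edgeR adjusted p = 0.657) were not called. Dusp4 ran from 4.10 through 4.59 to 5.17 and Dusp14 from 5.25 through 6.21 to 6.54. For each of these genes 2 of the 9 libraries lay below every saline library and 2 above every one, so the groups overlapped with a wider spread at 24 h. Their log2 fold changes were 0.18 ± 0.16 for Dusp4 and 0.15 ± 0.17 for Dusp14 (SE), neither called. Dusp1 was the 1 gene of the 5 called, where 0.0779% of all genes were.

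The PFC values at 24 h are given by labelled sex. Dusp1 was at 5.01, 5.83, 6.10 and 6.22 log2 CPM in the 4 females and at 4.32, 4.39, 4.66, 5.02 and 5.30 in the 5 males. Dusp6 was at 6.49, 6.70, 6.72 and 6.79 in females and at 5.41, 5.41, 5.86, 6.40 and 6.50 in males. The 2 highest males for Dusp6, numbers 16 and 17, were also the 2 males in the off state.

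Against saline males, the 24 h males were at -2.11 ± 0.24 for Dusp1 (SE, edgeR adjusted p = 4.41e-06), -0.98 ± 0.20 for Dusp6 (SE, edgeR adjusted p = 0.0324) and -0.96 ± 0.21 for Dusp5 (SE, edgeR adjusted p = 0.0623). That is 2 of 5 genes called, where 0.1% of all genes were. Against saline females, the 24 h females were at -0.65 ± 0.25 for Dusp1, -0.00 ± 0.21 for Dusp6 and -0.01 ± 0.22 for Dusp5 (SE, edgeR adjusted p = 1.0 for each). None of the 5 was called by edgeR in females, where 0.039% of all genes were, and 2 (Dusp1 and Dusp4) had an unadjusted edgeR p under 0.05, as 3.77% of all genes did. The difference itself, males minus females, was -1.46 ± 0.35 for Dusp1 (SE, edgeR adjusted p = 0.241) and -0.98 ± 0.29 for Dusp6 (SE, edgeR adjusted p = 0.801), so a sex difference was not called. All 3 saline females were off and all 4 females at 24 h were on. In females state and treatment thus cannot be told apart here, which also bears on the difference between the sexes.

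Among males in the on state, 3 at 24 h could be set against the 3 saline libraries. Dusp1 changed by -2.44 ± 0.26 (SE, edgeR adjusted p = 2.62e-06), Dusp6 by -1.40 ± 0.18 (SE, edgeR adjusted p = 2.41e-05) and Dusp5 by -1.12 ± 0.23 (SE, edgeR adjusted p = 0.0412). All 3 were called, with Dusp4 at -0.37 and Dusp14 at 0.04 not called, where 0.113% of 18536 genes were. This subset was chosen after the data had been seen. Within the 24 h males, on minus off was -0.88 ± 0.19 for Dusp6 (SE, edgeR adjusted p = 0.185) and -0.72 ± 0.28 for Dusp1 (SE, edgeR adjusted p = 1.0).

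At 2 weeks the PFC levels overlapped those of saline mice. Dusp1 ran from 6.12 through 6.58 to 6.93 log2 CPM and Dusp6 from 6.51 through 6.91 to 7.13. Dusp5 ran from 4.54 through 5.14 to 5.47, Dusp4 from 4.24 through 4.85 to 5.10 and Dusp14 from 5.90 through 6.01 to 6.23. The highest Dusp1 value and the lowest of Dusp5 and Dusp6 came from number 10, the library with the lowest total. All 5 genes overlapped saline, with log2 fold changes of -0.16 ± 0.19 for Dusp1, -0.02 ± 0.15 for Dusp6, -0.18 ± 0.16 for Dusp5, 0.32 ± 0.17 for Dusp4 and 0.06 ± 0.18 for Dusp14 (SE). None was called by edgeR, where 0.00557% of all genes were. DESeq2 also called 0 of the 5, where it called 12 of 17966 genes. At an unadjusted edgeR p under 0.05 there were 0 of the 5, where 5.04% of all genes were. Saline males were on and all 2-week mice off, so in males state and treatment cannot be told apart here. Over 7 alternative fits the log2 fold change of Dusp1 ran from -0.51 to -0.15 and that of Dusp6 from -0.46 to -0.02. None of these fits called a member.

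Set directly against 24 h, Dusp1 was higher at 2 weeks by 1.22 ± 0.17 on the log2 scale (SE, edgeR adjusted p = 2.04e-04), a fold of 2.33. Of the 7 libraries at 2 weeks, 5 lay above every 24 h library, the highest being number 10 with its low total of 5182601 counts. Dusp6 was at 0.47 ± 0.14 (SE, edgeR adjusted p = 0.264) and Dusp5 at 0.30 ± 0.15 (SE, edgeR adjusted p = 0.577). Dusp1 was the 1 of 5 called, where 0.15% of all genes were. All 2-week mice were off and 7 of 9 at 24 h were on. Among males in the off state, Dusp1 was at 5.02 and 5.30 log2 CPM in the 2 at 24 h. It ran from 6.12 to 6.83 in the 4 at 2 weeks, a difference that was not tested. With the state as a covariate the value for Dusp1 was 0.67 (edgeR adjusted p = 1.0).

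**Figure D2:**
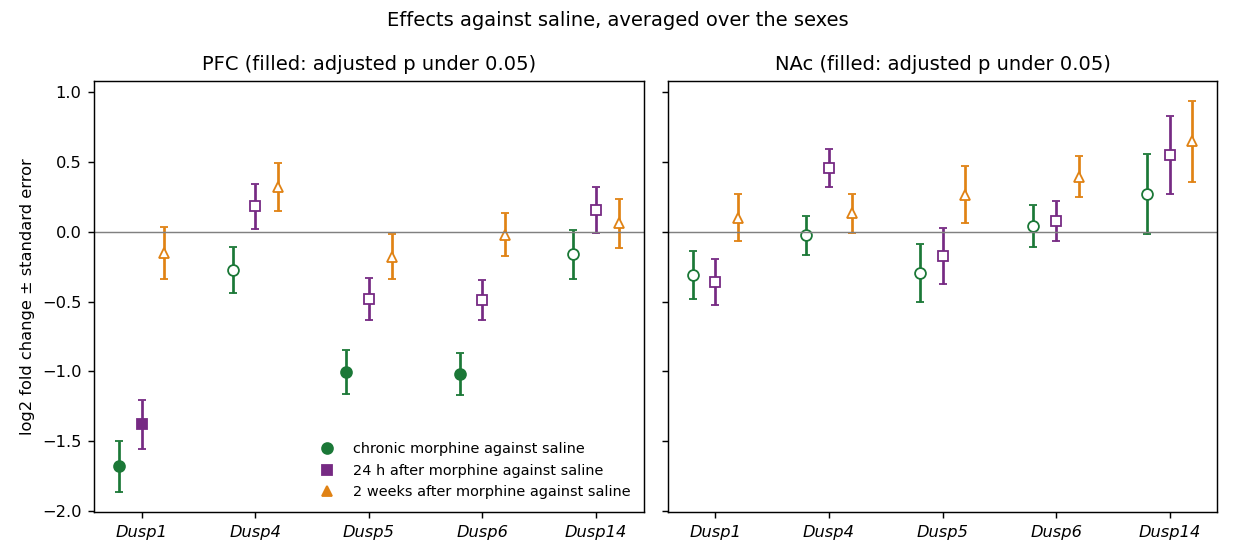
Log2 fold change against saline, averaged over the sexes, on the vertical axis for each gene in PFC (left) and NAc (right). Bars are standard errors and filled symbols have an adjusted p under 0.05. The 4 filled symbols are all in PFC, at -1.68, -1.02 and -1.0 for chronic morphine and -1.38 for Dusp1 at 24 h.

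In NAc the same contrasts called none of the 5 genes. For Dusp1 the lowest, median and highest libraries were 4.0, 4.44 and 4.95 log2 CPM in saline mice. They were 3.61, 4.18 and 4.62 under chronic morphine, 3.47, 4.07 and 4.98 at 24 h, and 4.20, 4.55 and 5.15 at 2 weeks. With the sexes together, the groups overlapped throughout. Log2 fold changes for Dusp1 were -0.31 ± 0.17 under chronic morphine (SE, edgeR adjusted p = 0.401), -0.36 ± 0.16 at 24 h (SE, edgeR adjusted p = 0.377) and 0.10 ± 0.17 at 2 weeks (SE, edgeR adjusted p = 0.946). By labelled sex, the 5 males at 24 h ran from 3.47 to 4.20 and the 4 saline males from 4.25 to 4.67, without overlap. At 24 h males were at -0.67 ± 0.22 (SE, edgeR adjusted p = 0.431) and females at -0.06 ± 0.25 (SE, edgeR adjusted p = 0.939). Neither was called, where 8 and 36 of 18382 genes were. Males minus females, at -0.61 ± 0.33 (SE, edgeR adjusted p = 0.812), was not called either.

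Dusp4 gave the lowest p of the 5 genes in the NAc contrasts against saline. Its lowest, median and highest libraries were 2.67, 3.33 and 3.49 in saline mice and 3.37, 3.77 and 3.99 at 24 h. At 24 h 7 of 9 libraries were above every saline library. The log2 fold change of 0.46 ± 0.14 (SE, edgeR unadjusted p = 0.00223, adjusted p = 0.178) was not called. Under chronic morphine Dusp4 was at -0.03 ± 0.14 and at 2 weeks at 0.13 ± 0.14 (SE).

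Dusp14 had the widest groups in NAc. Its lowest, median and highest libraries were 3.23, 4.34 and 4.94 in saline mice, 3.04, 4.61 and 5.16 under chronic morphine, 3.34, 4.72 and 5.90 at 24 h, and 4.11, 4.72 and 5.74 at 2 weeks. Dusp6 ran from 4.10 to 4.74 in saline mice and from 3.88 to 5.36 over the morphine groups, and Dusp5 from 1.81 to 3.28 and from 1.38 to 3.31. Every morphine group of these genes overlapped saline.

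Dusp5 was at -0.30 ± 0.21, -0.17 ± 0.20 and 0.26 ± 0.21 on the log2 scale under chronic morphine, at 24 h and at 2 weeks (SE). Dusp6 was at 0.04 ± 0.15, 0.08 ± 0.14 and 0.39 ± 0.15, and Dusp14 at 0.27 ± 0.29, 0.55 ± 0.28 and 0.65 ± 0.29 (SE). The 5 genes had 0 calls where 1.69% of 18382 genes were called under chronic morphine, 0.163% at 24 h and 0.00544% at 2 weeks. At an unadjusted edgeR p under 0.05 these were 0, 2 and 2 of the 5, where 15.2%, 12.1% and 6.44% of all genes were, and DESeq2 called 0 in each. Between 2 weeks and 24 h none of the 5 was called either, where 0.267% of all genes were, and Dusp1 was at 0.46 ± 0.16 (SE, edgeR adjusted p = 0.302). There 4 of the 5 had an unadjusted edgeR p under 0.05, where 9.49% of all genes did. DESeq2 called 0 of the 5, where over all genes it called 2.76 times the 49 of edgeR.

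Whether the effects differed between the regions was tested over both. Dusp1 was called for a difference over the 3 treatments (edgeR adjusted p = 0.00728), 1 of 5 genes where 0.0363% of 19266 genes were called. Dusp6 had an adjusted p of 0.174 in edgeR, and 0.0338 in DESeq2, which called both, where it called 0.151% of all genes. For chronic morphine alone, the effect in NAc minus that in PFC was 1.38 ± 0.26 for Dusp1 (SE, edgeR adjusted p = 0.0106) and 1.07 ± 0.22 for Dusp6 (SE, edgeR adjusted p = 0.0312), so 2 of 5 were called where 0.0311% of all genes were. For Dusp5 it was 0.72 ± 0.26 (SE, edgeR adjusted p = 1.0). At 24 h the difference was 1.03 ± 0.25 for Dusp1 (SE, edgeR adjusted p = 0.278) and was not called. With the library number as a replicate block it was 1.06 ± 0.18 and was called (SE, edgeR adjusted p = 0.0289), though the labels do not say that equal numbers are the same mouse.

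Sex differences of the treatment effects over the 3 treatments were called for none of the 5 genes in PFC, where 0% of all genes were called, nor in NAc, where 0.0544% were. The adjusted p values ranged from 0.439 to 1.0 in PFC and from 0.510 to 0.904 in NAc. At an unadjusted edgeR p under 0.05 there were 3 of the 5 in PFC and 2 in NAc, where 4.71% and 9.56% of all genes were. DESeq2 called 0 of the 5 in each, where it called 47 of 17966 genes in PFC and 98 of 18382 in NAc. With the state as a covariate Dusp6 was called for a sex difference in PFC (edgeR adjusted p = 0.0193), where 0.0167% of all genes were. The state term in that fit is set by the 24 h males alone, 3 on and 2 off. In them, on minus off for Dusp6 was -0.88 and not called (edgeR adjusted p = 0.185). The call therefore rests on these 5 libraries for its correction of all other groups.

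The NAc levels were related to those of striatal markers. A striatal score, the mean log2 CPM of 9 markers of striatal projection neurons such as Drd1, Drd2 and Ppp1r1b, ran from 4.92 to 8.66 in saline mice, 5.16 to 9.34 under chronic morphine, 6.30 to 9.18 at 24 h and 7.57 to 9.05 at 2 weeks. Deviations from the mean of each treatment and sex were correlated over 32 libraries with permutation within these cells, in 5 relations. Dusp14 followed the score with r = 0.91 and rho = 0.90 (permutation p = 1e-05, the lowest value possible with 100000 draws, adjusted 2.5e-05). Without the 2 libraries of most extreme score its r was 0.90. How many of all genes follow the score as closely was not counted, here or for the genes below.

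Dusp5 had r = 0.67 and rho = 0.74 (permutation p = 1e-05 for both, adjusted 2.5e-05). For Dusp6, r was 0.66 and rho 0.69 (adjusted permutation p = 1.83e-04 and 2.67e-04). Dusp1 had r = 0.50 and rho = 0.59 (adjusted permutation p = 9.00e-04 and 4.88e-04). For Dusp4 the relation was not called, with r = -0.06 and rho = -0.22 (adjusted permutation p = 0.769 and 0.249). With the score as a covariate, no NAc effect of the 5 genes was called, and Dusp14 at 2 weeks was at 0.34 ± 0.13 (SE, edgeR adjusted p = 0.433).

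**Figure D3:**
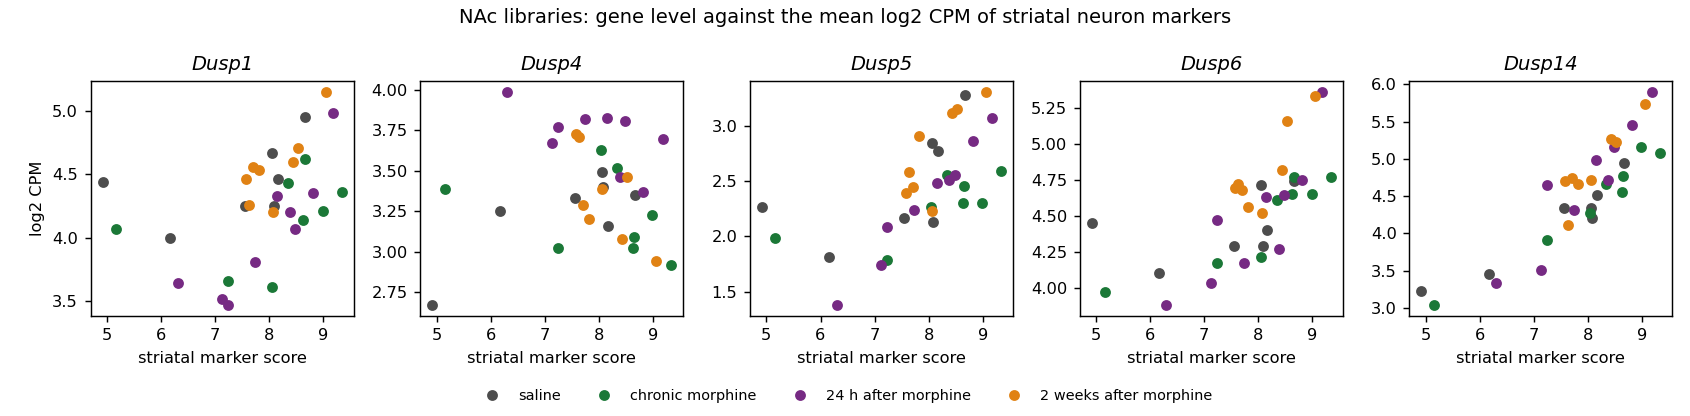
Log2 CPM of each gene (vertical axis) against the striatal marker score (horizontal axis, mean log2 CPM of 9 genes) in the 32 NAc libraries, coloured by treatment. Dusp14 rises along the score, with r = 0.91 for deviations from the group means, while Dusp4 has r = -0.06.

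The genes also varied together between libraries of the same treatment and sex. In NAc, the 6 pairs among Dusp1, Dusp5, Dusp6 and Dusp14 had r from 0.62 to 0.81 (32 libraries, adjusted permutation p of 3.33e-04 or less over 25 relations). The highest was Dusp6 with Dusp14 at r = 0.81 and rho = 0.80, and 0.80 without the 2 most extreme libraries. After a linear removal of the striatal score these 6 pairs had r from 0.45 to 0.72, given as a description. The 4 pairs with Dusp4 had r from -0.29 to -0.19 and adjusted permutation p of 0.222 or more. How many of all gene pairs reach such values of r was not counted, here or for the relations below. The values are therefore not set apart from those of other genes.

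In PFC the relations were looser. Over 30 libraries Dusp1 and Dusp6 had r = 0.57 and rho = 0.49 (adjusted permutation p = 0.0392 and 0.0784), and Dusp5 and Dusp6 had r = 0.53 and rho = 0.42 (adjusted permutation p = 0.0282 and 0.115). Those were the 2 of 10 PFC pairs whose r passed, and neither rho did. Within treatment, sex and state neither passed (adjusted permutation p = 0.333 and 0.246). Between PFC and NAc libraries of equal number, Dusp1 had r = 0.54 and rho = 0.51 (n = 30, adjusted permutation p = 0.00643 and 0.018), and 0.45 without the 2 most extreme libraries. Dusp4, Dusp5, Dusp6 and Dusp14 had r from 0.04 to 0.45 there, and none passed.

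Genes whose log2 CPM ran most like each phosphatase over the 30 PFC libraries, all treatments together, were picked among 12875 genes by Pearson r. Dusp1 ran most like Junb (r = 0.982), Arc (r = 0.975) and Ier2 (r = 0.974). For Dusp5 these were Nr4a1 (r = 0.910), Fos (r = 0.903) and Per1 (r = 0.901), and for Dusp6 Nr4a1 (r = 0.938), Klf10 (r = 0.935) and Fos (r = 0.932). Dusp4 had Bhlhe40 (r = 0.782), Arhgef3 (r = 0.696) and P4ha1 (r = 0.681), and Dusp14 had Lamp5 (r = 0.849), Rgs4 (r = 0.834) and Stx1a (r = 0.813). In the 32 NAc libraries the first of each were Arc for Dusp1 (r = 0.904), Dnajc3 for Dusp4 (r = 0.665), Egr1 for Dusp5 (r = 0.902) and Dusp6 (r = 0.871), and Srf for Dusp14 (r = 0.951). These values are a description, and libraries share treatment, tissue makeup and depth.

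Of 18 immediate early genes, transcription factors and effectors induced by SRF and CREB, 11 were called lower in PFC under chronic morphine and none higher, where 0.417% of all genes were called. The median log2 fold change of the list was -1.14. This list too was chosen with earlier results known. The largest were Egr2 at -3.35 ± 0.32 (SE, edgeR adjusted p = 1.65e-07), Arc at -2.23 ± 0.22 (SE, edgeR adjusted p = 2.44e-07), Fos at -2.17 ± 0.19 (SE, edgeR adjusted p = 1.13e-07) and Nr4a1 at -1.92 ± 0.19 (SE, edgeR adjusted p = 1.65e-07). Dusp1 lay among them at -1.68. DESeq2 called 13 of the 18 lower, where it called 0.974% of all genes. With the state as a covariate edgeR called 7, where it called 0.0612% of all genes.

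At 24 h 7 of the 18 were called lower in PFC, where 0.0779% of all genes were called. They were led by Egr2 at -1.75, Arc at -1.64, Ier2 at -1.39 and Fos at -1.37. At 2 weeks edgeR and DESeq2 called 0 of the 18 against saline, where they called 1 and 12 of 17966 genes. Of the 18, 1 was at an unadjusted edgeR p under 0.05, where 5.04% of all genes were. Against 24 h, 8 were called higher at 2 weeks, where 0.15% of all genes were called. With the state as a covariate edgeR called 0 of the 18 and 0% of all genes. In NAc, Fos and Btg2 were called lower under chronic morphine, at -1.15 and -0.56, where 1.69% of all genes were called. Fos was also called lower in NAc at 24 h, at -1.05, where 0.163% of all genes were called.

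For the components of the kinase pathways, edgeR called 0 of 77 genes tested in PFC under chronic morphine, where it called 0.417% of all genes. With shares this small, 0 calls do not set lists of this size apart from all genes. At an unadjusted edgeR p under 0.05 there were 12, where 7.91% of all genes were. DESeq2 called 3, all lower (Phlda1, Spry2 and Spry4), where it called 0.974% of all genes. At 24 h and 2 weeks edgeR and DESeq2 called 0 in PFC, where edgeR called 0.0779% and 0.00557% of all genes. DESeq2 called 46 and 12 of all 17966 genes in these contrasts. At an unadjusted edgeR p under 0.05 there were 6 and 4, where 3.01% and 5.04% of all genes were. In NAc edgeR called 0 of 76 in each contrast against saline, where it called 1.69%, 0.163% and 0.00544% of all genes. At an unadjusted edgeR p under 0.05 there were 17, 14 and 5, where 15.2%, 12.1% and 6.44% of all genes were. DESeq2 called 3 of the 76 under chronic morphine (Etv4 lower, Map3k7 and Ksr2 higher), where it called 3.74% of all genes, and 0 at 24 h and at 2 weeks. The lists were the 6 other MAP kinase phosphatases (Dusp2, Dusp7, Dusp8, Dusp9, Dusp10 and Dusp16), atypical dual-specificity phosphatases, Sprouty and Spred inhibitors, the ERK cascade, the JNK and p38 cascades, and ERK output genes. Their median log2 fold changes in PFC under chronic morphine ran from -0.00 for the other phosphatases to 0.16 for the ERK output genes. Among the feedback inhibitors of ERK signalling, Spry4 was at -0.76 ± 0.20 (SE, edgeR adjusted p = 0.097) and Spry2 at -0.36 ± 0.09 (SE, edgeR adjusted p = 0.0969). Spry2, Spry4, Phlda1, Etv4, Map3k7, Ksr2 and Dusp8 were chosen for naming after their values were seen. Among the other phosphatases, the JNK and p38 phosphatase Dusp8 had a mean log2 CPM of 8.07 ± 0.20 in the 6 saline PFC libraries (SD), and was at 0.07 ± 0.11 under chronic morphine (SE, edgeR adjusted p = 0.952).

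**Figure D4:**
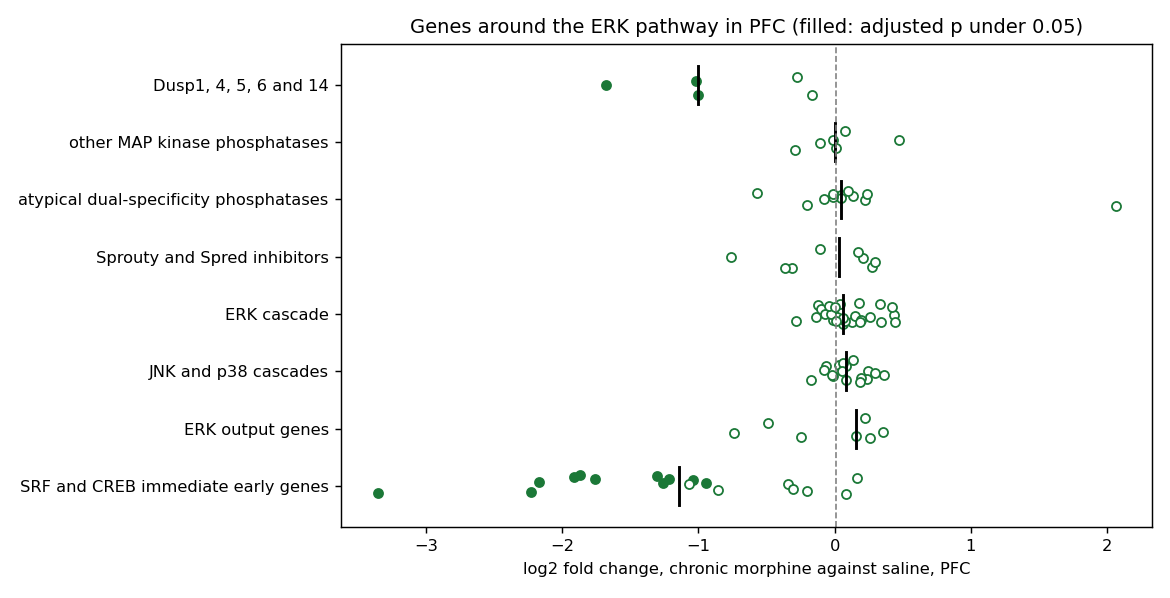
Log2 fold change of chronic morphine against saline in PFC (horizontal axis) for the genes of each list (vertical axis). Black bars are list medians, the dashed line is the median of all genes tested, and filled points are called. Filled points occur in 2 lists, the 5 phosphatase genes with 3 and the immediate early genes with 11.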

How the data were processed

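The mouse table holds counts per gene deposited by the authors, as whole numbers that are not normalized. The submitters' processing notes name FastQC, cutadapt, Trimmomatic, STAR, HISAT2 and RSEM and the build GRCm38, without roles. The counting program and its use of strand are not given in the sources used here. Rows that name no gene were left out (medians of 5.43% without a feature, 14.7% not unique and 0.832% ambiguous). Gene symbols came from GENCODE M21 for 45143 of 46078 identifiers.

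Levels are log2 CPM (prior count 2) with TMM scaling over all 62 libraries. Tests were edgeR 4.0.16 quasi-likelihood fits in R 4.3.3 (filterByExpr, means for each treatment and sex, contrasts averaged over the sexes), each region separately and both jointly for regional differences. The p-values were adjusted by Benjamini-Hochberg over all genes tested. The fits were tested on simulated data. Alternatives were DESeq2 1.42.0, its size factors in edgeR, no filter on low counts, each library left out, a striatal marker covariate and the replicate block. Those on number 27, the on or off state, single sexes and the striatal score were added after seeing the data. Named genes were the members, at most 4 called genes per list with the largest change, and the 3 genes most like each member. Members and lists were chosen with earlier results of these data known. The labels do not say whether libraries come from separate animals, so p-values measure only the spread between these libraries.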

Additional observations from a re-analysis of the deposited data

Results flagged for a closer look

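Of 40 groups of libraries examined for a value far from the rest, 3 held one, and chance gives about 1 in 20. Dusp1 in PFC under chronic morphine had its highest library, number 26, at 5.74 log2 CPM, with the nearest at 5.05. Dusp4 in NAc of saline mice had its lowest library, number 6, at 2.67 log2 CPM, with the nearest at 3.16. That library also had the lowest striatal marker sum of its group, 444 CPM, whose part in its Dusp4 level was not tested. Over the 32 NAc libraries Dusp4 had r = -0.06 with the striatal score. Dusp14 in PFC under chronic morphine had its lowest library, number 25, at 4.56 log2 CPM, with the nearest at 5.71. The effect of treatment on Dusp1 differed between NAc and PFC (edgeR adjusted p = 0.00728 over the 3 treatments).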

How the results depend on the processing

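The number of members called was 3, 1, 0 and 1 in PFC (chronic morphine, 24 h, 2 weeks, and 2 weeks against 24 h) and 0 in each NAc contrast, and leaving out any 1 library of the region gave those counts again. With the state added to the fit, a term set by the 24 h males alone, the PFC count was 1 under chronic morphine, 0 for 2 weeks against 24 h and 1 for the sex difference. In that fit Dusp5 was at -0.81, Dusp6 at -0.58 and Dusp1 at 2 weeks against 24 h at 0.67 (edgeR adjusted p = 0.363, 0.431 and 1.0), and the cause was not tested. DESeq2 called 2 members for the difference between regions. Of the PFC pairs, 1 passed within treatment, sex and state (Dusp5 with Dusp14, r = 0.60) against 2 in the main analysis. Leaving out 1 library moved the log2 fold change under chronic morphine in PFC between -1.84 and -1.58 for Dusp1, -1.15 and -0.92 for Dusp5 and -1.12 and -0.92 for Dusp6.

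Counts over all genes moved more. For chronic morphine in PFC, DESeq2 called 2.33 times as many as the 75 of the main analysis, the striatal covariate 1.53 times and the state covariate 0.147 times, and leaving out 1 library gave 0.613 (saline number 1) to 2.37 times (number 10). In NAc, against 311, these were 2.21, 2.2 and 0.354 times, and 0.386 (number 27) to 1.82 times (number 25), with 0.595 times without the filter and 0.624 times with number 27 counted as male. At 24 h, DESeq2 gave 3.29 times the 14 of PFC and 5.57 times the 30 of NAc, the striatal covariate 2.07 and 2.8 times and the state covariate 0.643 and 2.1 times, and NAc without the filter 0.467 times. Leaving out 1 library at 24 h gave 0.786 to 2.14 times in PFC (highest without number 10) and 0.1 to 1.63 times in NAc (lowest without saline number 1, highest without number 17), where 9 of 32 libraries moved the count by over 1.5 times. For 2 weeks against 24 h, DESeq2 gave 4.67 times the 27 of PFC and 2.76 times the 49 of NAc, the state covariate 0 and 0.163 times, and the striatal covariate 3.02 times in NAc. Leaving out 1 library there gave 0.889 to 4.44 times in PFC, with 3 of 30 libraries (numbers 8, 9 and 10) moving it by over 1.5 times, and 0.551 to 1.08 times in NAc, with 2 of 32 (numbers 8 and 9). At 2 weeks against saline 1 gene in each region became 12 in PFC and 41 in NAc with DESeq2, and 2 and 13 with the state. For the sex difference, DESeq2 called 47 in PFC against 0, and 98 in NAc against 10, and for the regional difference 29 against 7. With the state the sex difference called 3 in PFC and 4 in NAc, and with the striatal covariate 1.9 times the 10 of NAc. The 10 of NAc became 0 to 2.2 times as many with 1 library left out, and 30 of 32 libraries moved it by over 1.5 times. The shares of all genes called therefore depend on single libraries.

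PFC and NAc libraries of equal number had deviations correlated between -0.04 and 0.29 (19 of 30 pairs over 0.1). Without values for unequal numbers beside them, these correlations cannot decide whether the numbers pair. The main fit did not use the numbers as pairing, because the labels do not say that equal numbers are the same mouse. The on or off state and the detection of Ddx3y were the same in 30 of 30 such pairs, number 27 included. With the replicate block the regional difference called 1 member, Dusp1 (edgeR adjusted p = 3.27e-04), and the saline comparison called 5, as without it. For 24 h alone, the block turned the regional difference of Dusp1 into a call (edgeR adjusted p = 0.0289 against 0.278). Of limits, the state is tied to treatment in most groups, and PFC number 10 had 5182601 counts against a median of 29999922.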
